A study of Mus musculus with 12 samples.

Results

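The genes of the mitochondrial ribosome were taken as every gene whose symbol starts with Mrpl or Mrps followed by a digit in both RPKM tables of the series, and 78 of the 20775 genes listed met this rule. By symbol these were 49 Mrpl genes and 29 Mrps genes. By the place of the protein, 51 belonged to the large subunit and 26 to the small subunit, because Mrps30 and Mrps18a encode large subunit proteins in spite of their names. The remaining gene, Mrps36, encodes a component of the 2-oxoglutarate dehydrogenase complex and was kept because it met the rule. All 78 passed the filter of a mean RPKM above 1 at both stages, and they lay on 17 chromosomes.

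Mitochondria carry their own ribosome, the mitoribosome, which translates the few respiratory chain subunits that are encoded by mitochondrial DNA. Its ribosomal RNAs are transcribed inside the organelle, whereas its proteins are encoded in the nucleus, translated in the cytosol and imported. Some of these proteins descend from the bacterial ribosome and others were gained later in evolution and are found only in mitochondria. Cardiomyocytes are rich in mitochondria, and inherited defects of several of these proteins, MRPL3 and MRPL44 among them, cause cardiomyopathy in humans. MED30 is a subunit of Mediator, the complex that links transcription factors to RNA polymerase II, and the study asked which transcripts depend on it in the developing and in the adult heart.

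Total RNA was sequenced after ribosomal RNA removal, in 3 samples per group from mice of strain C57BL/6. At embryonic day E10.5, whole hearts in which Tnnt-Cre, a Cre active in cardiomyocytes, had deleted the Med30 f/f allele (cKO) were compared with hearts of littermates (Ctrl). The study gives these littermates as Med30 f/f and Cre-negative. In the adult, the Med30 f/f allele was deleted by αMHC-MerCreMer, a cardiomyocyte Cre that acts after tamoxifen (TAM), and Cre-negative Med30 f/f mice given TAM served as Ctrl. These icKO and Ctrl cardiomyocytes were isolated 4 weeks post-TAM at 3 months of age. The labels call the Ctrl samples of both stages wild type. The floxed allele was derived from a targeted embryonic stem cell clone, and because no Ctrl animal carried Cre, an effect of Cre on these transcripts cannot be told apart from the loss of Med30. The study saw neither deaths nor impaired heart function in αMHC-MerCreMer mice that lacked the floxed allele and were given TAM. Such mice are not among the samples used here. How many hearts entered a sample was not given in the sources used here, so p values measure the spread between these samples, which may be technical.

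Med30, the deleted gene, was at 10.6, 13.3 and 11.3 RPKM in E10.5 Ctrl and at 1.376, 2.023 and 1.004 RPKM in cKO. In adult cardiomyocytes it was at 7.66, 7.45 and 7.66 RPKM in Ctrl and at 3.81, 3.16 and 1.82 RPKM in icKO. RPKM are reads per kilobase of gene and megaread (M) of the library. The depth estimated from the spacing of low RPKM values was 13.7 to 19.98 M reads per sample at E10.5 and 11.97 to 17.5 M at 4 weeks, which put a median of 241 to 489 reads on a member. In Ctrl, the 10 cardiomyocyte markers summed to 24758 to 26143 RPKM in adult cells and to 7207 to 10420 RPKM in E10.5 hearts, although Myl7, an atrial myosin light chain, averaged only 0.471 RPKM in adult Ctrl. In adult Ctrl the 8 fibroblast markers summed to 5.03 to 8.39 RPKM, the 8 endothelial markers to 11.465 to 24.6 RPKM and the 5 mural markers to 60.4 to 68.2 RPKM, of which Abcc9 alone averaged 55.1 RPKM. E10.5 Ctrl replicate 1 stood apart from the rest of its stage with the highest summed RPKM of the table, 197081 against 148074 to 172358. At 4 weeks the 20 most abundant genes took 24.8% to 25.4% of the summed RPKM in Ctrl and 11.53% to 13.1% in icKO. With this, the 9517 genes tested at 4 weeks had a median log2 fold change of 0.57 as deposited, and of 0.01 after scaling by median ratios, and the 10885 genes tested at E10.5 had -0.13 and -0.01. Changes of the members are therefore given as deposited, and also relative to these medians or after median-ratio scaling, which sets the typical gene of each sample to the same level. Fold changes were fitted in limma on log2(RPKM + 0.1), and adjusted p values cover all genes tested.

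In Ctrl hearts at E10.5 the mean level of the members ranged from 1.47 to 62.4 RPKM with a median of 15.6. Mrpl42 (62.4 RPKM), Mrpl12 (56.2 RPKM) and Mrpl18 (44.3 RPKM) were the highest, and Mrps36 (1.47 RPKM), Mrpl48 (2.98 RPKM) and Mrpl23 (3.03 RPKM) the lowest. MRPL12 forms the stalk of the large subunit, where translation factors dock. In adult Ctrl cardiomyocytes the range was 2.96 to 179 RPKM with a median of 19.3. Here Mrpl42 (179 RPKM), Mrpl30 (101 RPKM) and Mrpl33 (87.5 RPKM) led, and Mrpl17 (2.96 RPKM), Mrpl23 (3.74 RPKM) and Mrpl19 (3.91 RPKM) were the lowest. Across the 78 members the Ctrl levels of the 2 stages had a Spearman rho of 0.81, a description over genes that are no independent replicates. The high adult value of Mrpl42 varied between samples, with 246, 140 and 152 RPKM in Ctrl.

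Promoters were read from RefSeq (GRCm38.p6), which held windows of 300 bases around the start, from 250 before to 50 after, for 69 of the 78 members (75 windows). They are shown because NRF1, the ETS factor GABP, YY1 and SP1 are known to bind promoters of nuclear genes for mitochondria. The letters GCGCANGCG (NRF1) stood on either strand in 21.3% of the windows of members and in 6.25% of all 32851 windows. CCGGAAG (ETS factors) stood in 34.7% and 8.86%, AANATGGCG (YY1) in 14.7% and 2.38%, and GGGCGG (SP1) in 52.0% and 35.7%. In windows of genes tested at 4 weeks, which are richer in G and C than all windows, the shares were 14.6%, 19.1%, 5.79% and 65.0%. These are descriptions of letters and not of binding.

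Sequences are given for the mitoribosome members with the 2 lowest and the 2 highest changes at 4 weeks among those with a single RefSeq window. The bases of the window that precede both the RefSeq start and the first GENCODE exon reaching into it follow 5′ to 3′, with motif letters in capitals. The stretches hold 46 bases for Mrps5, 250 for Mrpl34, 184 for Mrps6 and 238 for Mrpl33. They are, in order, at chr2:127587176-127587221, chr8:71464676-71464925, chr16:92058086-92058269 and chr5:31613701-31613938, all on the plus strand of GRCm38.p6. RefSeq and GENCODE M21 place the starts differently: the RefSeq start lies 17016 bases inside the GENCODE gene for Mrpl33, 204 for Mrps5 and 66 for Mrps6, and 33 bases before it for Mrpl34. The stretch shown for Mrpl33 therefore lies inside the GENCODE gene and not before its start.
Mrps5: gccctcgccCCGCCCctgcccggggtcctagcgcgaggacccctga
Mrpl34: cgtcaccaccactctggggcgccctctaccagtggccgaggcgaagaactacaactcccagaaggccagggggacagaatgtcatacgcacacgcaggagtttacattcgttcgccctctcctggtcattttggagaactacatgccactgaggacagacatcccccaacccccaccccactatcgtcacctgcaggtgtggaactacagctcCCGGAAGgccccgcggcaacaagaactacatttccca
Mrps6: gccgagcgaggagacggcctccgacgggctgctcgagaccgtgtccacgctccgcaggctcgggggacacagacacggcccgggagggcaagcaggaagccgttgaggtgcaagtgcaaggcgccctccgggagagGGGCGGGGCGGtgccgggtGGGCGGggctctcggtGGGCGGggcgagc
Mrpl33: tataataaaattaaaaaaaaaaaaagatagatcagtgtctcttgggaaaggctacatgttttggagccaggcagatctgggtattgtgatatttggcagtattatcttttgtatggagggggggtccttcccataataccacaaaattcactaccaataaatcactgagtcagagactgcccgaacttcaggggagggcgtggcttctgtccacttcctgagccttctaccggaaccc
Mrps5, which fell, held 1 SP1 motif on the minus strand, and Mrpl34, which also fell, held 1 ETS motif. Mrps6, which rose, held 4 SP1 motifs, of which 2 overlap. Mrpl33, which rose, held 1 ETS motif that runs across the RefSeq start and lies past the stretch shown. SP1 letters were thus present in a gene that fell and in one that rose, and so were ETS letters.

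After embryonic deletion most mitoribosome genes were slightly lower, and few passed the test. The log2 fold change was below 0 for 76 of 78 members as deposited, where 68.6% of all genes tested were, and for 65 members after median-ratio scaling, where 51.4% were. The median of the members was -0.35, or -0.22 relative to all genes, and without Ctrl replicate 1 it was -0.23, or -0.15 relative to all genes. Of the 78, 8 fell at an adjusted p under 0.05 in limma's test, where 3.45% of all genes tested fell, and 0 rose, where 0.864% of all genes rose. At an unadjusted p under 0.05, 35 members were lower and 1 was higher, against 19.2% and 4.39% of all genes. With a log2 fold change beyond 1 as well, 1 member fell (0.542% of all genes fell and 0.239% rose by this rule). The 3 cKO values lay wholly below the 3 Ctrl values for 28 members and wholly above them for 1, against 22.6% and 6.5% of all genes. In whole hearts, fewer cardiomyocytes and less RNA per cardiomyocyte cannot be told apart. The cardiomyocyte markers, at 7207 to 10420 RPKM in Ctrl, summed to 5130 to 6385 RPKM in cKO, with 0 of 10 called in limma and 2 lower at an unadjusted p under 0.05. Erythroid markers summed to 329 to 1094 RPKM in Ctrl and 506 to 2961 RPKM in cKO, with 0 of 9 called at an adjusted or an unadjusted p under 0.05. The 8 endothelial markers summed to 144 to 199 RPKM in Ctrl and 171 to 185 RPKM in cKO, which overlapped. As a share of the summed RPKM of each sample they took 0.0881% to 0.101% in Ctrl and 0.109% to 0.125% in cKO, with 0 called at either threshold. Of 4 epicardial markers tested, Tbx18 fell (log2 fold change -0.95, adjusted p = 0.033, and 0.057 after median-ratio scaling), and of 2 macrophage markers Lyz2 fell (-1.04, adjusted p = 0.027). No fibroblast or mural marker was called in limma (1 fibroblast marker was lower, and 1 mural marker lower and 1 higher, at an unadjusted p under 0.05). The part of any of these in the lower values of the members was not tested.

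The 8 members that fell were Mrpl23, Mrps28, Mrpl42, Mrps12, Mrpl45, Mrpl38, Mrps27 and Mrpl36. Mrps28, a small subunit protein gene, had 16.0, 13.0 and 11.9 RPKM in Ctrl and 8.62, 6.77 and 7.57 RPKM in cKO. Its mean was 1.78-fold lower, a log2 fold change of -0.82 ± 0.14 (SE, adjusted p = 0.024). Mrpl42 had 63.0, 53.9 and 70.2 RPKM in Ctrl and 40.2, 34.4 and 42.6 RPKM in cKO (log2 fold change -0.67 ± 0.14, adjusted p = 0.030). In both genes the groups did not overlap, with all cKO values under the lowest Ctrl value. Mrps12, which encodes the protein of the decoding centre, went from 14.7 ± 0.74 to 9.94 ± 0.85 RPKM (mean ± SD, n = 3 each, log2 fold change -0.56, adjusted p = 0.030). Mrpl23, whose protein lies at the exit of the peptide tunnel, had the largest fall but few reads, with 3.28, 1.74 and 4.08 RPKM in Ctrl and 0.690, 1.47 and 0.881 RPKM in cKO. Its log2 fold change was -1.47 ± 0.36 at an adjusted p of 0.0499, and the highest cKO value was close to the lowest Ctrl value. Mrpl45, whose protein anchors the ribosome at the inner membrane, fell by 0.56 on the log2 scale (adjusted p = 0.042). Mrpl38, Mrps27 and Mrpl36 fell by 0.55, 0.53 and 0.53 (adjusted p = 0.048, 0.041 and 0.045).

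The embryonic calls depended on single samples. Without Ctrl replicate 1, 0 members were called in limma (0.451% of all genes fell). At an unadjusted p under 0.05 that fit had 17 members lower, against 12.6% of all genes, and 1 higher, against 5.75%. The count was also 0 without Ctrl replicate 3 (0.175% of all genes fell) and without cKO replicate 2 (0.358%). Unadjusted, these had 29 and 25 members lower, against 15.003% and 13.8% of all genes, and 1 higher each. Without Ctrl replicate 2, 4 members fell (1.60% of all genes), without cKO replicate 1, 1 fell (0.45%), and without cKO replicate 3, 12 fell (5.35%). After median-ratio scaling 5 members were lower and 1 higher, where 2.56% and 2.49% of all genes were. Mrpl42 and Mrps28 were called lower under all 4 scalings used, where 1.93% to 3.45% of all genes were lower under the single scalings. Mrps6 was the member that was higher after median-ratio scaling. It had 21.6, 18.0 and 21.0 RPKM in Ctrl and 24.0, 28.6 and 27.6 RPKM in cKO, so the groups did not overlap. As deposited, its log2 fold change was 0.40 ± 0.12 with an adjusted p of 0.084, and after median-ratio scaling it was 0.52 with an adjusted p of 0.021.

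At 4 weeks after deletion in adult cardiomyocytes the family split. Of 78 members, 26 fell and 29 rose at an adjusted p under 0.05 as deposited, and 23 did not pass the test. Of all genes tested, 18.1% fell and 60.6% rose. The median log2 fold change of the members was 0.11, or -0.46 relative to all genes, and 62 of 78 lay below that of all genes. By contrast, 53 members were lower and 10 were higher after median-ratio scaling, where 34.6% and 33.6% of all genes were. Under the 4 scalings 26 members were lower in each, 10 were higher in each, 41 had calls that differed between scalings, and 1 was called in none. Under the single scalings 18.1% to 34.6% of all genes were lower and 33.6% to 60.6% higher. The share of all genes called under all 4 was not computed, and it cannot exceed 18.1% lower and 33.6% higher. Of the 41, 5 (Mrpl15, Mrpl22, Mrpl41, Mrps18a and Mrps21) were called higher under one scaling and lower under another. Groups did not overlap for 28 members that were lower in icKO and 32 that were higher, against 18.9% and 62% of all genes. The summed level of the members differed little, with 1893 to 2105 RPKM in Ctrl and 2046 to 2152 RPKM in icKO.

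**Figure D1:**
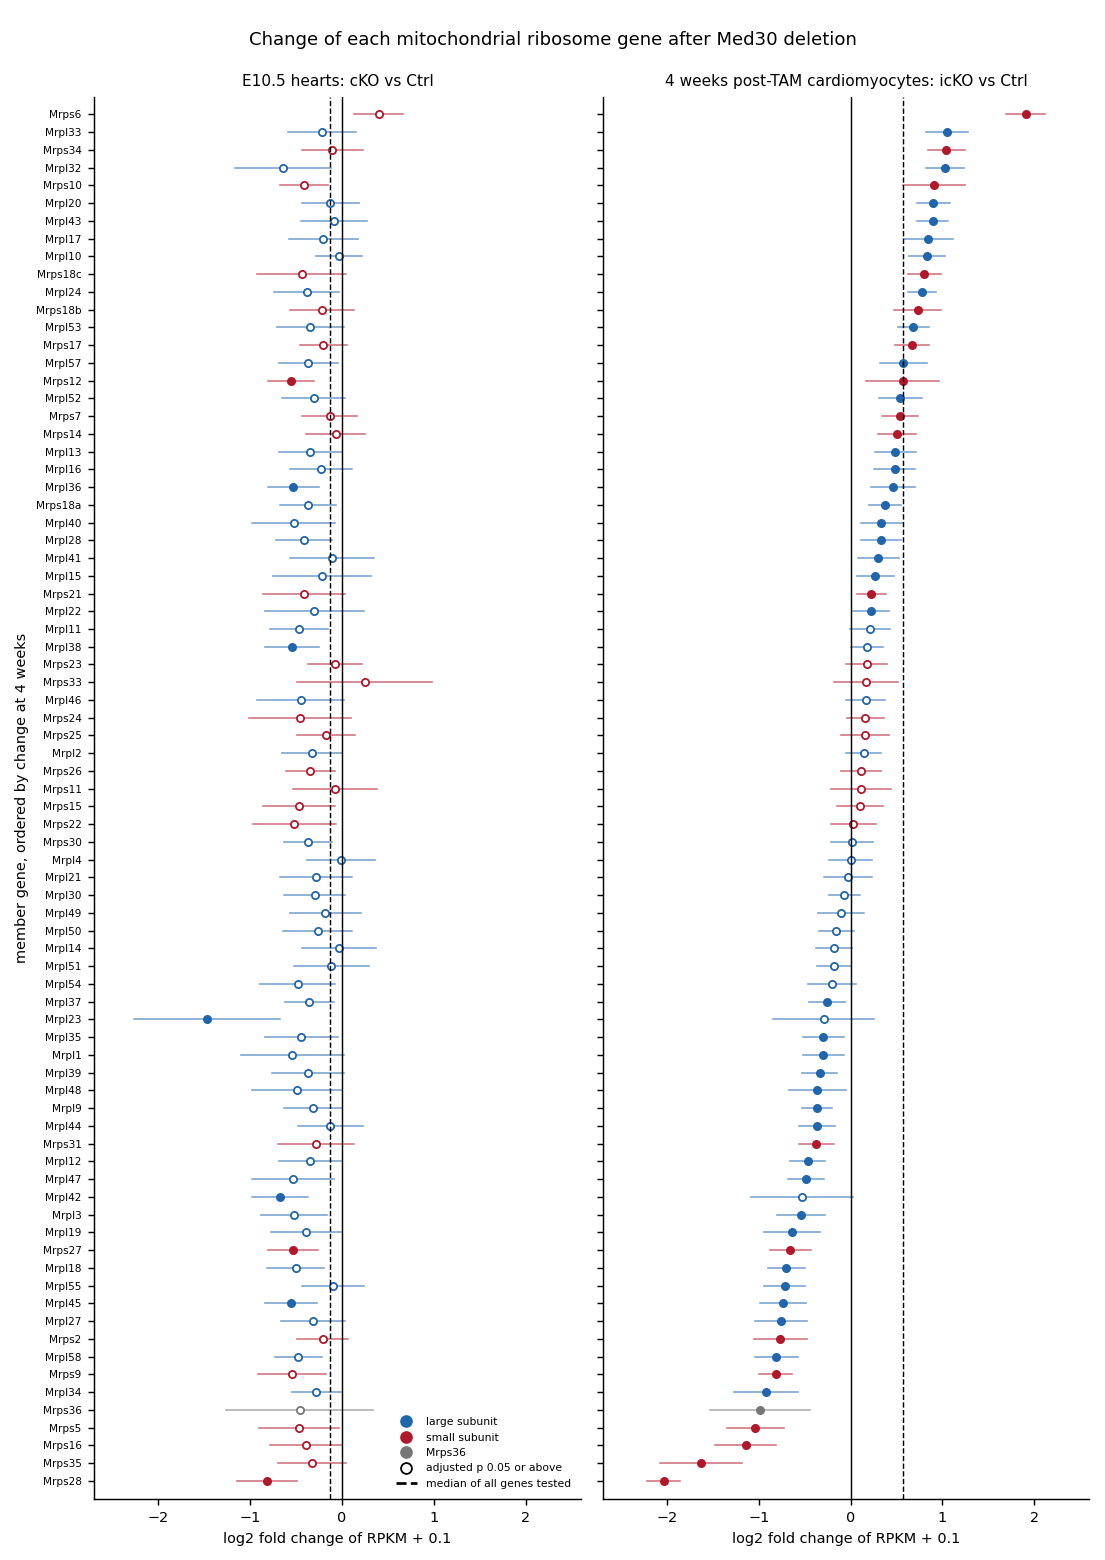
Log2 fold change of RPKM + 0.1 of each of the 78 members in E10.5 hearts (left, cKO against Ctrl) and in adult cardiomyocytes (right, icKO against Ctrl), with the 95% confidence interval of the limma fit as a line, n = 3 samples per group. Filled points have an adjusted p under 0.05, colours mark the subunit, and the dashed line is the median of all genes tested (-0.13 at E10.5, 0.57 at 4 weeks). At E10.5, 76 of 78 points lie below 0 (68.6% of all genes do, and 65 of 78 members after median-ratio scaling), whereas at 4 weeks they run from -2.03 for Mrps28 to 1.90 for Mrps6.

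Fibroblast transcripts moved with this comparison. Postn, which encodes periostin, rose from 0.367 to 24.4 RPKM and all 5 fibroblast markers tested rose, while the sum over the 8 markers went from 5.03 to 8.39 RPKM in Ctrl to 60.4 to 87.5 RPKM in icKO. The 10 cardiomyocyte markers summed to 9614 to 12158 RPKM in icKO, and 7 of the 10 fell and 2 rose. Myl7 was at 0.205 to 7.30 RPKM in icKO and did not pass the test. Of the endothelial markers tested 3 of 7 rose, of the macrophage markers 2 of 2, of the mural markers 2 of 4 while Abcc9 fell from 55.1 to 4.97 RPKM, and of the erythroid markers 0 of 3, and no epicardial marker was above the filter. Of all genes, 60.6% rose and 18.1% fell as deposited. After median-ratio scaling 4 fibroblast, 1 mural, 0 endothelial, 0 macrophage and 0 erythroid markers were higher, where 33.6% of all genes were. Under that scaling 7 cardiomyocyte markers were lower and 1 was higher, and 1 mural marker was lower, where 34.6% of all genes were lower. The part of any of these in the changes of the members was not tested.

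As deposited, 4 members fell by more than 2-fold (log2 fold change beyond 1), Mrps28, Mrps35, Mrps16 and Mrps5 of the small subunit, and 4 rose by more than 2-fold, where 8.45% and 28% of all genes did. After median-ratio scaling 19 members were past 2-fold lower, 11 of the large subunit, 7 of the small subunit and Mrps36, and Mrps6 alone was past 2-fold higher, where 15.9% and 11.1% of all genes were. Mrps28 lies at chr3:8802146-8923918 on the minus strand in GRCm38 and had 24.998, 25.086 and 24.698 RPKM in Ctrl and 6.00, 6.13 and 5.91 RPKM in icKO. This 4.15-fold fall (log2 fold change -2.03 ± 0.08, adjusted p = 2.0e-07) was far larger than the spread of either group. It was also the gene with the lowest log2 fold change of the family under median-ratio scaling (-2.59). Mrps35 (chr6:147042764-147073991, plus strand), which encodes a protein found only in mitochondrial ribosomes, had 41.5, 37.1 and 34.1 RPKM in Ctrl and 10.083, 10.011 and 17.213 RPKM in icKO. Its log2 fold change was -1.63 ± 0.20 (adjusted p = 5.8e-05), and icKO replicate 3 lay nearest to Ctrl. Mrps16 (chr14:20389304-20393634, minus strand), the mitochondrial form of bacterial S16, had 36.4, 26.8 and 35.6 RPKM in Ctrl and 13.6, 13.4 and 17.5 RPKM in icKO. The groups did not overlap and the log2 fold change was -1.14 ± 0.15 (adjusted p = 9.1e-05). Mrps5 (chr2:127587222-127606829, plus strand), whose bacterial counterpart helps to set decoding accuracy, had 10.9, 9.24 and 10.9 RPKM in Ctrl and 4.56, 4.48 and 6.03 RPKM in icKO, a log2 fold change of -1.04 ± 0.14 (adjusted p = 0.00011). These 4 genes kept an adjusted p under 0.05 when any single sample was left out, and under each scaling.

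Other members that fell had smaller changes. Mrps36 went from 4.45 ± 0.27 to 2.30 ± 0.81 RPKM (log2 fold change -0.98, adjusted p = 0.0045). Mrpl34, a large subunit gene, went from 41.1 ± 5.0 to 21.8 ± 4.7 RPKM (log2 fold change -0.93, adjusted p = 0.00045). Mrpl19, one of the least abundant members, fell by 0.64 on the log2 scale (adjusted p = 0.0018). Mrpl42 and Mrpl30, the most abundant members of adult Ctrl, did not pass the test as deposited, with log2 fold changes of -0.53 (adjusted p = 0.073) and -0.07 (adjusted p = 0.41), and were called lower after median-ratio scaling, at -1.09 (adjusted p = 0.0049) and -0.63 (adjusted p = 0.00011). The values of Mrpl42 in icKO were 129, 88.0 and 153 RPKM and overlapped those of Ctrl. Mrpl3 and Mrpl44, given above as examples of genes linked to human cardiomyopathy, were named for that link and not by size. They fell by 0.54 and 0.37 on the log2 scale (adjusted p = 0.0019 and 0.0034), and do not stand for all members with such a link.

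Mrps6 rose most. It lies at chr16:92058270-92112227 on the plus strand, encodes the mitochondrial form of bacterial S6, and had 16.9, 16.9 and 14.1 RPKM in Ctrl and 60.8, 56.2 and 63.0 RPKM in icKO. This 3.75-fold rise (log2 fold change 1.90 ± 0.10, adjusted p = 5.1e-07) was 1.34 on the log2 scale after median-ratio scaling. The gene Slc5a3, an inositol transporter gene on the same strand, shares 159 of the 1533 annotated exon bases of Mrps6. Slc5a3 itself was at 0.407, 0.363 and 0.371 RPKM in Ctrl and at 1.14, 0.856 and 0.784 RPKM in icKO, far below Mrps6. A predicted gene, Gm49711, shares another 305 bases on the same strand and was not listed in the tables used here.

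Mrpl33 (chr5:31596935-31664384, plus strand), a short protein of the large subunit, had 89.9, 84.5 and 88.2 RPKM in Ctrl and 171, 212 and 165 RPKM in icKO. Its log2 fold change was 1.05 ± 0.10 (adjusted p = 1.5e-05). Mrps34 (chr17:24895116-24897502, plus strand), a small subunit protein found only in mitochondria, had 25.6, 21.7 and 24.0 RPKM in Ctrl and 49.5, 51.5 and 46.0 RPKM in icKO, a log2 fold change of 1.04 ± 0.09 (adjusted p = 7.3e-06). All icKO values of both genes lay above all Ctrl values. Of the exon bases of Mrps34, 37.0% are shared with Nme3 on the same strand and 63.4% with Mapk8ip3 on the other, and Nme3 went from 9.27 to 11.3 RPKM. Mrpl32 (chr13:14608184-14613165, minus strand), whose protein must be cleaved by the m-AAA protease before the ribosome can assemble, had 16.8, 14.3 and 16.8 RPKM in Ctrl and 33.9, 32.8 and 31.4 RPKM in icKO. The log2 fold change was 1.03 ± 0.09 (adjusted p = 8.6e-06), and every icKO value was above the highest Ctrl value. Mrps10 and Mrpl17 rose less, by 0.90 and 0.85 on the log2 scale (adjusted p = 0.00043 and 0.00014), and after median-ratio scaling Mrpl17 was at 0.29 (adjusted p = 0.039) and Mrps10 at 0.34, no longer past the threshold (adjusted p = 0.056). The 10 members called higher under all 4 scalings were Mrpl10, Mrpl17, Mrpl20, Mrpl24, Mrpl32, Mrpl33, Mrpl43, Mrps18c, Mrps34 and Mrps6, and all 10 were also called in every fit that left out 1 sample. Of the 26 members lower under all scalings, 22 were, the exceptions being Mrpl1, Mrpl35, Mrpl37 and Mrpl48.

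**Figure D2:**
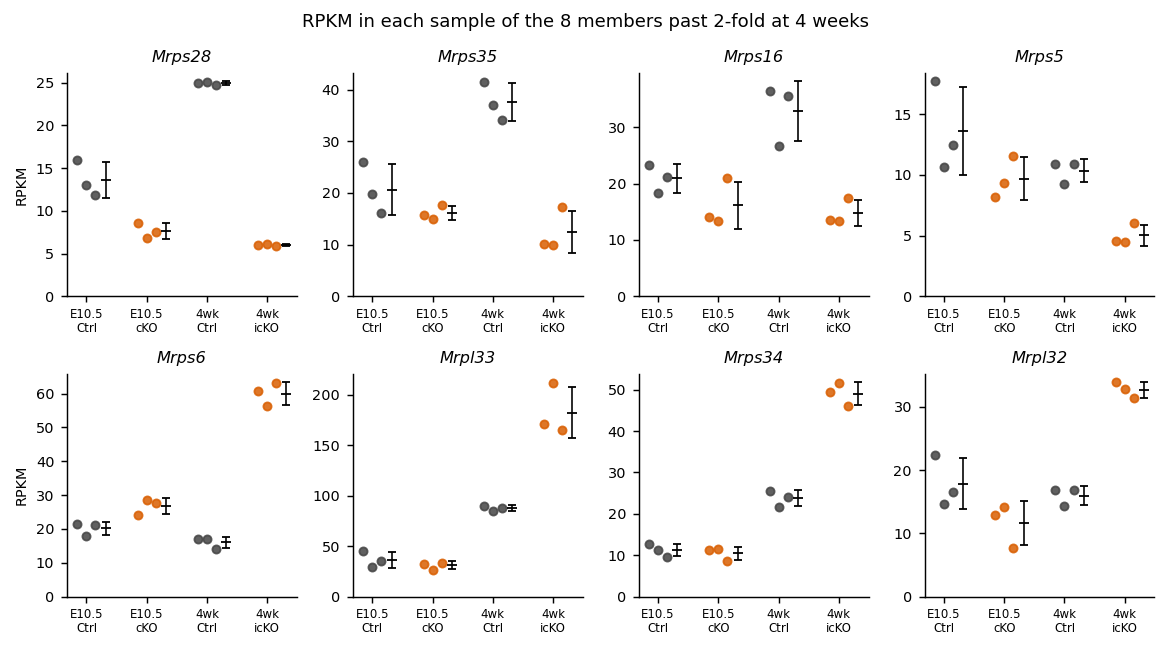
RPKM in each sample of the 8 members that changed by more than 2-fold at 4 weeks, with Ctrl in grey and cKO or icKO in orange, and mean ± SD of the 3 samples beside the points. Mrps28, Mrps35, Mrps16 and Mrps5 are lower and Mrps6, Mrpl33, Mrps34 and Mrpl32 higher in all 3 icKO samples than in any adult Ctrl sample, whereas the E10.5 groups overlap for Mrps35, Mrps16, Mrps5, Mrpl33 and Mrps34.

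Annotated exons of 23 members share bases with another coding gene, and for 4 members (Mrpl53, Mrps24, Mrps34 and Mrps6) the other gene is on the same strand. The strand setting of the read counting was not given in the sources used here, so for these genes the values may include reads of the neighbour. Mrpl24 (594 of 2255 exon bases) overlaps Rrnad1, which rose as well (log2 fold change 0.69, adjusted p = 0.00030), and Mrpl43 (507 of 1520) overlaps Twnk, the mitochondrial helicase gene, which also rose (0.61, adjusted p = 0.00070). Rises of this size were common as deposited, where 60.6% of all genes rose and the median was 0.57. Mrpl18 shares 141 bases with Tcp1, and here the partners moved in opposite directions, -0.70 for Mrpl18 and 1.38 for Tcp1. These pairs are examples. Mrps7 and Gga3 also rose together, while Mrpl27 and Eme1, Mrpl44 and Wdfy1, Mrpl48 and Rab6a, and Mrps7 and Mif4gd moved in opposite directions.

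As deposited, both subunits were split at 4 weeks. Of 51 large subunit genes 17 fell and 19 rose, with a median log2 fold change of -0.03, and of 26 small subunit genes 8 fell and 10 rose, with a median of 0.16, where 18.1% of all genes fell and 60.6% rose. After median-ratio scaling 36 large subunit genes were lower and 7 higher, and 16 small subunit genes were lower and 3 higher. Both deposited medians were below that of all genes, by 0.59 and 0.41 on the log2 scale. The range was wider in the small subunit, from -2.03 to 1.90, than in the large, from -0.93 to 1.05. Mrps30 and Mrps18a, large subunit proteins with a small subunit symbol, had log2 fold changes of 0.01 (adjusted p = 0.91) and 0.38 (adjusted p = 0.0016). Relative to all genes both were low, and after median-ratio scaling they were at -0.55 and -0.19. Of the 46 members with a bacterial counterpart 16 fell and 20 rose (median 0.13), and of the 31 found only in mitochondria 9 fell and 9 rose (median 0.03). After median-ratio scaling these counts were 29 and 8, and 23 and 2. At E10.5 the medians were -0.35 for the large and -0.34 for the small subunit.

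**Figure D3:**
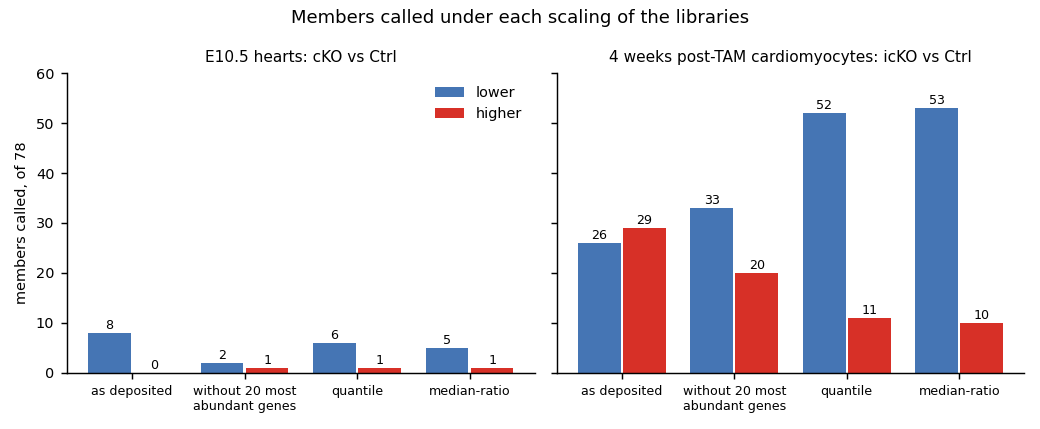
Number of the 78 members called lower (blue) and higher (red) at an adjusted p under 0.05 in E10.5 hearts (left) and in adult cardiomyocytes (right) under 4 scalings of the libraries. At 4 weeks the count of lower members goes from 26 as deposited to 53 after median-ratio scaling, and that of higher members from 29 to 10. The share of all genes called lower goes from 18.1% to 34.6%, and that called higher from 60.6% to 33.6%.

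Whether the effect of the deletion differed between the stages was tested as a contrast over all 12 samples and 8909 genes. For 34 members the effect was higher at 4 weeks and for 6 it was lower, where 59.4% of all genes were higher and 9.29% were lower. After median-ratio scaling 5 members were higher and 31 were lower, against 26.5% and 26.4% of all genes. The 6 that were lower at 4 weeks under all 4 scalings were Mrps35, Mrps28, Mrps16, Mrpl34, Mrpl55 and Mrps2. For Mrps35 the difference of the log2 fold changes was -1.30 (adjusted p = 0.0012) and for Mrps28 it was -1.21 (adjusted p = 3.1e-05). The 5 that were higher under all 4 were Mrpl24, Mrpl32, Mrpl33, Mrps10 and Mrps6. Under the single scalings 9.29% to 26.4% of all genes were lower and 26.5% to 59.4% higher, and their share under all 4 was not computed. Mrpl32 differed most, by 1.67 (adjusted p = 0.00016), since it was at -0.64 in E10.5 hearts (adjusted p = 0.14) and at 1.03 in adult cells. E10.5 Mrpl32 was at 22.4, 14.6 and 16.6 RPKM in Ctrl and at 12.9, 14.2 and 7.68 RPKM in cKO. Mrps6 differed by 1.503 (adjusted p = 2.9e-06), Mrps10 by 1.32 (adjusted p = 4.5e-05) and Mrpl33 by 1.27 (adjusted p = 0.00016). The tissue also differed, whole hearts at E10.5 and isolated cardiomyocytes in the adult, as did the Cre line and the tables, which were normalized separately, and these cannot be told apart from stage.

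Of the 8 members that fell at E10.5, 3 (Mrps28, Mrpl45 and Mrps27) also fell at 4 weeks, which is 37.5% of the E10.5 list and 11.54% of the 26 of the adult list, and 33.3% of all members fell in the adult. Another 2, Mrps12 and Mrpl36, rose at 4 weeks as deposited, and neither passed the test after median-ratio scaling. The remaining 3 were not called at 4 weeks. Across the 78 members, the log2 fold changes at E10.5 and in the adult were correlated at 0.38 (Pearson) and 0.32 (Spearman), against 0.30 and 0.27 across all genes tested at both stages, a description over genes, which share libraries and depth.

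**Figure D4:**
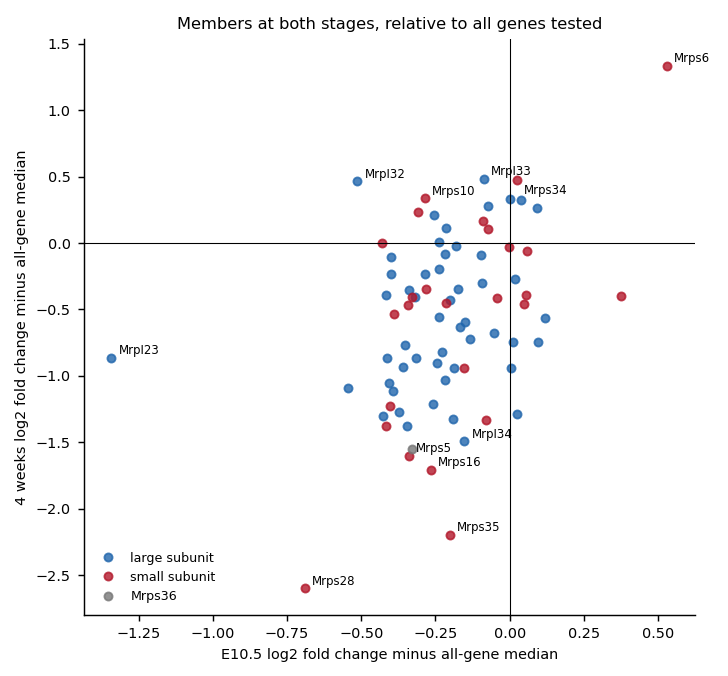
Log2 fold change of each member minus the median of all genes tested, in E10.5 hearts (x axis) and in adult cardiomyocytes (y axis), coloured by subunit. Of 78 points, 63 lie left of the vertical line, 62 below the horizontal line and 52 in the lower left quadrant, where 28.9% of all genes lie, Mrps28 is the lowest in the adult and Mrps6 lies alone in the upper right corner.

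Genes that work with the mitoribosome were described from fixed lists. Of 5 mitoribosome proteins under other symbols, Ptcd3 fell at 4 weeks from 30.2 to 16.5 RPKM (log2 fold change -0.87, adjusted p = 1.4e-05), while Dap3, Chchd1 and Aurkaip1 rose by 0.61, 0.47 and 0.79 on the log2 scale, and Gadd45gip1 was at 0.09 (adjusted p = 0.31). As deposited 18.1% of all genes fell and 60.6% rose. After median-ratio scaling Dap3 and Chchd1 no longer passed the test and Aurkaip1 did (0.22, adjusted p = 0.041). Under that scaling Gadd45gip1 was called lower (-0.47, adjusted p = 0.00038), as was Ptcd3 (-1.43, adjusted p = 2.7e-06). There 34.6% of all genes were lower and 33.6% higher. At E10.5 all 5 were below 0, and 0 were called in limma, with 3 lower at an unadjusted p under 0.05. Among all genes 68.6% were below 0 and 19.2% were lower at that unadjusted p.

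Translation factors were mostly lower in adult icKO. Of 13 tested, 7 fell and 2 rose, with a median log2 fold change of -0.33, where 18.1% of all genes fell and 60.6% rose. After median-ratio scaling 11 fell and 0 rose, where 34.6% and 33.6% of all genes did. Mrrf, which recycles ribosomes after termination, went from 11.53 to 5.02 RPKM (log2 fold change -1.21, adjusted p = 1.0e-04). Oxa1l, the insertase that receives the new chains at the inner membrane, went from 23.2 to 13.1 RPKM (-0.83, adjusted p = 3.5e-05), and Mtif2, the initiation factor, from 12.3 to 7.36 RPKM (-0.73, adjusted p = 0.00019). At E10.5 only Tufm, the elongation factor, was called among the 13, and it fell from 16.9 ± 1.2 to 9.45 ± 0.47 RPKM (log2 fold change -0.83, adjusted p = 0.0097). In adult cells Tufm was at 31.7 RPKM in Ctrl and at 26.7 RPKM in icKO (adjusted p = 0.059), and after median-ratio scaling it was called lower (-0.82, adjusted p = 0.00036).

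Of 24 assembly factors tested at 4 weeks, 10 fell and 8 rose as deposited, where 18.1% of all genes fell and 60.6% rose. After median-ratio scaling 15 fell and 1 rose, where 34.6% and 33.6% of all genes did. Mettl17, a factor for the assembly of the small subunit, went from 4.67 to 0.966 RPKM (log2 fold change -2.24, adjusted p = 5.1e-05). Rpusd4 and Mrm1, which modify the large ribosomal RNA, fell by 1.14 and 1.06 on the log2 scale. Among the 25 tested at E10.5, Gtpbp10, Mrm3 and Ngrn fell, by 0.84, 0.84 and 0.70 on the log2 scale, and 0 rose. Of all genes tested at E10.5, 3.45% fell and 0.864% rose. After median-ratio scaling Gtpbp10 (adjusted p = 0.058) and Mrm3 (adjusted p = 0.051) were no longer called. Ngrn rose at 4 weeks as deposited (0.76, adjusted p = 0.00044) and did not pass after median-ratio scaling (0.20, adjusted p = 0.21).

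Of the 16 mitochondrial aminoacyl-tRNA synthetases tested in adult cells, which charge the tRNAs that the mitoribosome reads, 6 fell and 1 rose, where 18.1% of all genes fell and 60.6% rose. After median-ratio scaling 13 fell and 0 rose, where 34.6% and 33.6% of all genes did. Sars2, the seryl-tRNA synthetase, fell most, from 5.09 to 0.917 RPKM (log2 fold change -2.39, adjusted p = 1.9e-05). Among genes of mitochondrial transcription and RNA handling, 7 of 14 fell and 5 rose as deposited, and 8 fell and 1 rose after median-ratio scaling, against the same shares of all genes. Lrpprc, which stabilizes mitochondrial messenger RNAs, went from 42.6 to 16.3 RPKM (-1.38, adjusted p = 1.2e-06), whereas its partner Slirp went from 34.8 to 54.2 RPKM (0.64, adjusted p = 0.00031). These values are as deposited, where the median of all genes tested was 0.57, so Slirp lay near the typical gene. At E10.5 Lrpprc and Pnpt1, the mitochondrial RNA phosphorylase gene, fell by 0.47 and 0.50 on the log2 scale (adjusted p = 0.0498 and 0.038, and 0.049 and 0.063 after median-ratio scaling), and 0 of the 17 synthetases tested were called in limma, with 5 lower and 1 higher at an unadjusted p under 0.05. At that unadjusted p 19.2% of all genes were lower and 4.39% higher.

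Among 9 regulators known to act on nuclear genes for mitochondria, the coactivator genes diverged at 4 weeks. Ppargc1a went from 23.8 to 6.25 RPKM (log2 fold change -1.90, adjusted p = 9.6e-07) and Ppargc1b from 12.3 to 1.10 RPKM (-3.38, adjusted p = 2.2e-06), while Pprc1 went from 2.21 to 6.997 RPKM (1.62, adjusted p = 2.6e-06). Esrra, the nuclear receptor ERRα, fell by 0.73 on the log2 scale (adjusted p = 3.4e-05). Nrf1, Gabpb1 and Yy1 rose as deposited by 0.85, 1.10 and 0.53, and after median-ratio scaling Gabpb1 alone of these passed (0.55, adjusted p = 0.011). As deposited 3 of the 9 fell and 4 rose, and Gabpa and Myc were not called. By that measure 18.1% of all genes fell and 60.6% rose, with a median of 0.57. After median-ratio scaling 4 of the 9 were lower and 2 higher, where 34.6% and 33.6% of all genes were. At E10.5 Gabpa, the DNA-binding subunit of the ETS factor GABP, fell from 13.1 to 8.81 RPKM (-0.57, adjusted p = 0.042), a call lost after median-ratio scaling (adjusted p = 0.061).

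The promoter letters described with the sequences were set beside these changes. The median log2 fold change at 4 weeks was -0.26 for the 11 members with the YY1 letters and 0.15 for the 58 without, 0.17 for the 26 with the ETS letters and 0.01 for the 43 without, and 0.02 for the 16 with the NRF1 letters and 0.11 for the 53 without. The median was 0.11 for the 34 members with the SP1 letters and 0.01 for the 35 without. At E10.5 the medians were -0.44 with and -0.32 without the YY1 letters, and -0.33 with and -0.37 without the NRF1 letters, and as the members share libraries no test was made.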

How the data were processed

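The authors sequenced rRNA-depleted total RNA (KAPA RNA Hyper+RiboErase) of 12 samples, 3 per group, and deposited RPKM per gene in a table for each stage. The submitters' processing notes name cutadapt 2.6, STAR 2.5.3a, HOMER 4.11.1, DESeq2 1.12.4 and mm10. The annotation, the strand setting and the reads to which RPKM was scaled were not given in the sources used here. The tables also hold the authors' fold changes, FDR and mean RPKM, which were not used. The knockout columns are named icKO in both tables and were assigned by stage.

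From these values, genes whose mean over the 6 samples of a stage exceeded 1 RPKM were tested on log2(RPKM + 0.1) with limma 3.58.1 in R 4.3.3 (lmFit, then eBayes with a trend). Fold changes are on that scale and understate the change of low genes. P values were two-sided and adjusted for all tested genes of a fit (Benjamini-Hochberg). The difference between stages was a contrast over both tables, which were normalized separately. Median-ratio scaling divided each sample by its median ratio to the geometric mean. Quantile normalization and scaling without the 20 most abundant genes completed the 4 scalings. Depth was estimated from the spacing of low values. With it 57.3% to 65.0% of low values were within 0.1 of a whole read, which was too few for a count test, so the reads on a gene are estimates, and 3 reads on 1 kb stand for 0.150 to 0.251 RPKM. Summaries and figures used pandas 2.3.3, scipy 1.17.1 and matplotlib 3.10.9. Scripts were tested on simulated data.

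The members and all gene lists were chosen with earlier results of these data known. Members past a log2 fold change of 1 at 4 weeks, those called at E10.5 and the most and least abundant were named, as were members called under all scalings. Gene positions come from GENCODE M21 (GRCm38). Of 15 genes encoded by mitochondrial DNA that were searched by symbol, 0 were listed at either stage, so their transcripts could not be analysed.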

Additional observations from a re-analysis of the deposited data

Results flagged for a closer look

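The effect of the deletion differed between the stages for 40 of 78 members as deposited and for 36 after median-ratio scaling, by limma's test of the difference (adult minus E10.5, adjusted over 8909 genes). As deposited 43.6% of members were higher in the adult and 7.69% lower, against 59.4% and 9.29% of all genes. After median-ratio scaling the shares were 6.41% and 39.7% of members, against 26.5% and 26.4% of all genes. The values that follow are differences of log2 fold changes. Mrpl32 differed by 1.67 (adjusted p = 0.00016) and by 0.97 after median-ratio scaling (adjusted p = 0.011). Mrps6 differed by 1.503 (adjusted p = 2.9e-06) and by 0.80 (adjusted p = 0.00037), and the effect was above 0 at both stages. Mrps10 differed by 1.32 (adjusted p = 4.5e-05) and by 0.62 (adjusted p = 0.010), with E10.5 cKO below and adult icKO above Ctrl in all 3 samples. Mrpl33 differed by 1.27 (adjusted p = 0.00016) and by 0.56 (adjusted p = 0.013). Mrps35 differed by -1.30 (adjusted p = 0.0012) and by -2.003 (adjusted p = 7.7e-05). For Mrps28, lower in knockouts at both stages, the difference was -1.21 (adjusted p = 3.1e-05) and -1.91 (adjusted p = 6.5e-07). Mrps16 differed by -0.75 (adjusted p = 0.018) and by -1.45 (adjusted p = 0.00023), Mrpl34 by -0.64 (adjusted p = 0.014) and -1.35 (adjusted p = 0.00030), and Mrpl55 by -0.62 (adjusted p = 0.011) and -1.32 (adjusted p = 7.9e-05). Stage, tissue, Cre line and table cannot be told apart here.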

How the results depend on the processing

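The adult split depended on scaling. The count of members that fell at 4 weeks was 53 under median-ratio scaling, 52 under quantile normalization and 23 to 26 with 1 sample left out, and the count that rose was 10, 11 and 24 to 29. The shares of all genes that fell were 34.6%, 31.8% and 16.0% to 18.1%, and 33.6%, 36.9% and 57.0% to 59.7% rose. The adult median relative to all genes was -0.37 with a pseudocount of 1, -0.26 with no filter and -0.52 to -0.43 with 1 sample left out. At E10.5 the count that fell was 1 with no filter, 5 under median-ratio scaling, 2 without the 20 most abundant genes, 0 without the eBayes trend (26 at an unadjusted p under 0.05) and 0 to 12 with 1 sample left out, and the count that rose was 1 under each of the 3 other scalings. In the same order 0.676%, 2.56%, 1.93%, 0.91% (17.8% unadjusted) and 0.175% to 5.35% of all genes fell. Under those 3 scalings 2.49% to 3.76% of all genes rose. The E10.5 relative median was -0.26 to -0.15 with 1 sample left out, and the count of stage differences was 35 to 42. For the stage difference with 1 sample left out, 55.8% to 60.9% of all genes were higher and 8.24% to 9.90% lower. Signs turned under median-ratio, quantile and without-20 scaling for Mrps30 in the adult (-0.55, -0.51 and -0.23, and -0.074 to 0.092 with 1 sample left out), and at E10.5 for Mrpl10 (0.085, 0.086 and 0.14, and -0.11 to 0.035), Mrpl14 (0.088, 0.10 and 0.14, and -0.16 to 0.18) and Mrpl4 (0.11, 0.10 and 0.16, and -0.17 to 0.11). Adult Mrps18a was at -0.19 and -0.11 under the first and second of these, and E10.5 Mrps33 at -0.11 to 0.55 with 1 sample left out. Apart from scaling and omission, whose construction is given, the cause was not tested. Same-numbered samples did not deviate together (r of -0.07 to 0.10 at E10.5 and 0.04 to 0.15 at 4 weeks), and with a replicate block 3 members fell at E10.5, 27 fell and 28 rose at 4 weeks, and 39 differed between stages. With that block 2.79% of all genes fell at E10.5, and 18.0% fell and 60.6% rose at 4 weeks. Between stages 59.0% of all genes were higher and 9.17% lower with it. Depth limits the least abundant members, Mrps36 with as few as 7.9 estimated reads in a sample.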
